A study of Neurospora crassa with 18 samples.

Results

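This account covers 40 of the 9774 genes in the *Neurospora crassa* table, those whose transcripts rose under phosphate starvation in wild-type cells and stayed above 0.6 of the wild-type level in cells lacking the transcription factor NUC-1. Levels are in TPM (the share of a library's transcript signal assigned to a gene, scaled so that a library sums to 1000000), with the transcripts of a gene added together and 3 libraries averaged per group. A gene was taken when its mean after 4 h at 0 mM phosphate in Experiment 1 was at least 10 TPM and at least 4 times the mean at 7 mM, when its starved wild-type mean in Experiment 2 was at least 5 TPM and at least 1.5 times that same 7 mM mean, and when the Δ*nuc-1* mean exceeded 0.6 of the starved wild-type mean of Experiment 2. Genes that the study names by number were left out, which removed 2. The Experiment 1 conditions held for 483 genes and both starvation conditions for 268. Of these 268, 73 had a Δ*nuc-1* ratio of at most 0.25 and 153 had a ratio between 0.25 and 0.6. All measurements from the 12 libraries of Experiments 1 and 2 were therefore used in choosing the genes, and they are given as a description with no test.

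Mycelia were grown in phosphate-rich medium, washed and shifted to Fries minimal medium. In Experiment 1, wild type of mating type A (FGSC 2489, *mat A*) was held for 4 h at 7 mM or at 0 mM phosphate. In Experiment 2, the same wild-type strain and a Δ*nuc-1* strain (FGSC 11448, *nuc-1*::HygR, *mat a*) were held for 4 h at 0 mM. In Experiment 3, wild type of the other mating type (FGSC 4200, *mat a*) and a Δ*nuc-3* strain (FGSC 11356, *nuc-3*::HygR, *mat a*) were held for 12 h at 0 mM. Each group had 3 libraries from independently inoculated cultures, and each deletion was represented by 1 strain with a hygromycin resistance cassette in place of the gene. The experiments differed in sequencer and read length, and only Experiment 1 held a 7 mM group. Experiment 1 was also sequenced at another centre than Experiments 2 and 3. The study compared only libraries that shared a centre and sequencer, so ratios of Experiments 2 and 3 to 7 mM cross centres. The Δ*nuc-1* strain and its wild type also differed in mating type, so the deletion and the mating type cannot be told apart in Experiment 2.

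In *N. crassa*, phosphate shortage is sensed through the NUC-2, PREG and PGOV proteins, which release the basic helix-loop-helix factor NUC-1 to activate genes for phosphatases, nucleases and phosphate transporters. NUC-3, the product of the other deleted gene, is also a basic helix-loop-helix factor. Genes outside this acquisition set can also respond to the arrest of growth, to changes in the cell wall and to the onset of asexual development, in which aerial hyphae form conidia.

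Checks of the labels came first. *nuc-1* had means of 28.6 and 34.2 TPM in starved wild type of Experiments 1 and 2 and 2.09 TPM in Δ*nuc-1*. *nuc-3* had means of 167 TPM in wild type and 1.10 TPM in Δ*nuc-3* in Experiment 3. The alkaline phosphatase gene *pho-2*, a classical NUC-1 target, stood at 8.87 TPM at 7 mM, 3122 TPM in starved wild type of Experiment 2 and 11.1 TPM in Δ*nuc-1*. *matA-1*, a gene of the *mat A* locus, had means of 1.70 to 14.5 TPM in the 3 *mat A* groups and of 0.0203 TPM or 0 in the 3 *mat a* groups.

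The chosen genes formed a moderate response. Their ratio of starved to 7 mM mean in Experiment 1 ran from 4.10 to 38.8 with a median of 5.46. The median was 25.1 for the 73 genes with a Δ*nuc-1* ratio of at most 0.25. It was 5.96 for the 153 genes with a Δ*nuc-1* ratio between those of the 73 and the 40. A moderate rise was therefore not particular to the 40 genes. Over the 6993 genes that averaged 10 TPM or more in any group the median was 1.31. In Experiment 2 the starved wild-type mean of the 40 genes was 1.95 times the 7 mM mean at the median. It was 2.74 times for the 153 genes, and 6 of the 40 genes reached 4 times. The Experiment 1 starved mean was at least 2 times the Experiment 2 starved mean for 31 of 40 genes, with a median ratio of 2.74 against 1.26 over the 6993 genes. The highest ratio was 8.25, in *ccg-1*. The conditions asked for a larger rise in Experiment 1 than in Experiment 2, so nothing is read from this difference. All 3 starved wild-type libraries of Experiment 2 lay above all 3 libraries at 7 mM for 31 of 40 genes (77.5%), where 36.4% of the 6993 genes did so. The share was 94.5% for the 73 genes and 96.1% for the 153 genes. The conditions asked for a rise between these same groups, so nothing is read from the difference from all genes.

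The Δ*nuc-1* ratios took part in choosing the genes, so they are given as a description. The median ratio of Δ*nuc-1* to wild type was 0.722, below the 0.874 found over the 6993 genes, and 14 of 40 genes had a ratio above 0.8. Relative to wild type at 7 mM, the Δ*nuc-1* mean was at least 1.5 times higher for 22 of 40 genes and at least 4 times higher for 3, which were *mfa-1*, NCU08635 and NCU09904. All 3 Δ*nuc-1* libraries lay above all 3 wild-type libraries at 7 mM for 23 genes (30.5% of the 6993 genes did so), and the median ratio to 7 mM was 1.54 against 0.926 over the 6993 genes and 0.599 for the 73 genes with a low Δ*nuc-1* ratio. All 3 Δ*nuc-1* libraries lay below all 3 starved wild-type libraries for 6 genes, *ccg-1*, *ncw-1*, NCU06009, NCU03318, NCU05161 and NCU00835 (31.8% of the 6993 genes did so), and above all 3 for *mfa-1* alone (13.4% of the 6993 genes did so). No Δ*nuc-1* library at 7 mM was analysed here, so a level in Δ*nuc-1* above wild type at 7 mM is not a measured response of that strain to starvation. The conditions also put a floor under this level in every one of the 40 genes. The 73 genes were chosen for a low ratio. For all of them the conditions asked for a raised starved wild-type mean in Experiment 2, the divisor of the Δ*nuc-1* ratio. The contrasts with other genes, among them 0.722 against 0.874, therefore describe the choice. The genes are called here by their ratio and not as genes independent of NUC-1.

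**Figure D1:**
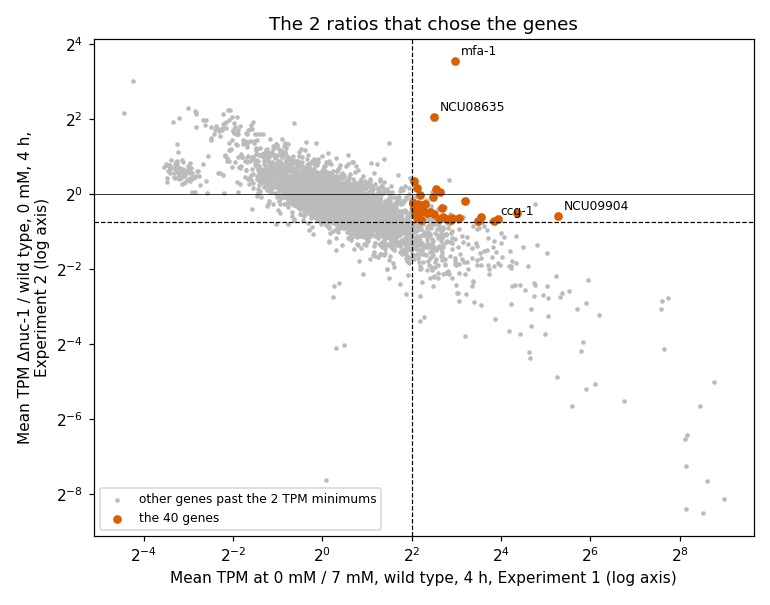
Each point is a gene past both TPM minimums, with the ratio of mean TPM at 0 mM to 7 mM phosphate in Experiment 1 (horizontal, log axis) against the ratio of mean TPM in Δ*nuc-1* to wild type in Experiment 2 (vertical, log axis); dashed lines mark the thresholds of 4 and 0.6. The 40 genes (orange) crowd just inside both lines, with *mfa-1* at a Δ*nuc-1* ratio of 11.5 and NCU08635 at 4.16 far above the rest, and the grey points in the same corner failed another condition or are named in the study.

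Many of the genes sat close to a threshold. Just inside the 4-fold condition of Experiment 1 were NCU00322 at 4.10 and NCU05376 at 4.10, and just outside it were NCU00080 at 3.88 and NCU00793 at 3.85. Just inside the Δ*nuc-1* condition were NCU04415 at 0.603 and *ccg-1* at 0.609, and just outside it were NCU04940 at 0.597 and *gcy-3* at 0.581. The spread between libraries was wide where the Δ*nuc-1* ratio was taken, with a median coefficient of variation over the 40 genes of 28.1% for starved wild type and 29.4% for Δ*nuc-1*, against 10.6% at 7 mM and 11.4% in starved wild type of Experiment 1. Replicate 1 of wild type in Experiment 2 was the highest of its 3 libraries for 30 of 40 genes and replicate 3 the lowest for 29, and replicate 1 of Δ*nuc-1* was the highest for 26.

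Membership depended on single libraries. Leaving out 1 library at a time gave 27 genes (without Δ*nuc-1* replicate 1) to 48 genes (without Δ*nuc-1* replicate 3), and the 47 genes found without wild-type replicate 1 of Experiment 2 held 26 of the 40. After each library was rescaled by its median ratio to the others, 25 genes met the conditions, 18 of them among the 40. Of the 22 that dropped out, 20 fell under the 4-fold condition of Experiment 1 and 0 failed on the Δ*nuc-1* ratio, whose median rose to 0.822. NCU01064, *gh61-6*, NCU05161, NCU06005, NCU06265, NCU07082 and *mfa-1* stayed in whichever library was left out, and NCU06265 and *mfa-1* also stayed under each of the other settings tried.

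**Figure D2:**
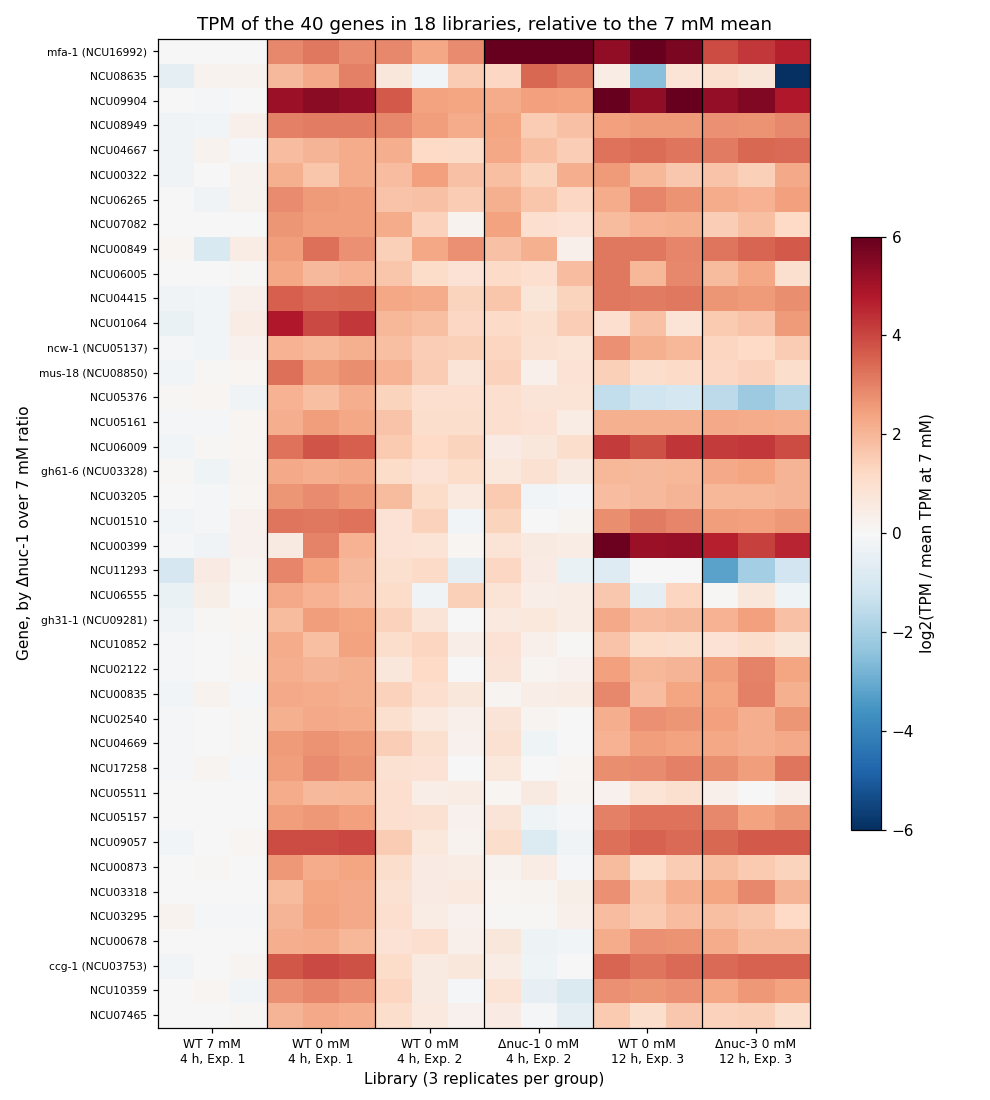
Rows are the 40 genes, ordered by their Δ*nuc-1* to 7 mM ratio, columns are the 18 libraries in 6 groups, and colour is log2 of TPM over the mean of the 3 libraries at 7 mM, drawn within 6 log2 units of 0 (a library listed at 0 TPM is drawn at the lower end). The Experiment 1 starved block and both 12 h blocks are mostly red, while the Experiment 2 blocks are paler for most genes, with strong colour at the top of the plot in *mfa-1*, NCU08635, NCU09904 and NCU08949.

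The most abundant gene was *ccg-1* (clock-controlled gene-1, also known as glucose-repressible gene-1; NCU03753), a transcript under clock and carbon control that is plentiful in starved mycelia. Its TPM were 1626, 1772 and 1996 at 7 mM, 24068, 27781 and 25631 in starved wild type of Experiment 1, 3852, 2649 and 2895 in starved wild type of Experiment 2 and 2478, 1501 and 1741 in Δ*nuc-1*. The Δ*nuc-1* libraries overlapped those at 7 mM and lay below every starved wild-type library, so the inclusion of *ccg-1* rests on a small rise in Experiment 2. Wild type of Experiment 3 had 20477, 16699 and 19269 TPM after 12 h. *ccg-1* made up most of the summed TPM of the 40 genes, 30850 to 34638 in starved wild type of Experiment 1, of which 6782 to 6944 remained without it.

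Next in abundance in starved wild type of Experiment 1 came NCU08949, for which no description was held, at 2399, 2545 and 2536 TPM. It had 258, 271 and 369 TPM at 7 mM, 2200, 1717 and 1383 TPM in starved wild type of Experiment 2 and 1542, 855 and 1009 TPM in Δ*nuc-1*. Every library of the 5 groups at 0 mM lay above every library at 7 mM for NCU08949, and its Δ*nuc-1* mean was 3.79 times the 7 mM mean. NCU07465, also without a description, went from 115, 116 and 123 TPM at 7 mM to 482, 577 and 538 TPM in Experiment 1, but its Δ*nuc-1* values of 166, 108 and 82.4 TPM straddled the 7 mM level. NCU04415 went from 37.2, 37.6 and 52.3 TPM to 509, 448 and 462 TPM, and all of its Δ*nuc-1* values, 135, 69.4 and 106 TPM, were above 7 mM.

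Genes for the cell wall and for carbohydrate breakdown were 6 of the 16 genes described in the study's data sets as more than a hypothetical protein. A further 7 of the 16 fell in no named class. The share of this class over all genes is not given here, so the count is not read as a trait of the group. *ncw-1* (NCU05137) encodes a non-anchored cell wall protein. It had 201, 198 and 261 TPM at 7 mM, 939, 866 and 961 TPM in starved wild type of Experiment 1, 771, 603 and 583 TPM in starved wild type of Experiment 2 and 536, 417 and 393 TPM in Δ*nuc-1*. The 4 groups of *ncw-1* values did not overlap, with Δ*nuc-1* between wild type at 7 mM and starved wild type. NCU09904, annotated as a glucan 1,3-beta-glucosidase, an enzyme that trims wall glucan, had the largest Experiment 1 ratio at 38.8, from 2.84, 2.72 and 2.88 TPM to 97.7, 119 and 110 TPM. Its Δ*nuc-1* values of 13.4, 15.4 and 14.9 TPM were close to those of wild-type replicates 2 and 3 of Experiment 2, 15 and 14.7 TPM, while replicate 1 stood at 36.0 TPM. The exochitinase gene NCU10852 had 17.1, 18.1 and 19.1 TPM at 7 mM, 85.2, 64.1 and 95 TPM in starved wild type of Experiment 1 and 33.1, 22.2 and 19.0 TPM in Δ*nuc-1*, where the lowest library was within the range at 7 mM.

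The other 3 genes of this class were lower. NCU00399, annotated as the cell wall protein PhiA, which in *Aspergillus* is needed for phialides, the cells that bud off conidia, had 20.1, 109 and 58.7 TPM in starved wild type of Experiment 1 against 12.8, 11.7 and 16.5 TPM at 7 mM. It left the list when replicate 2 of starved Experiment 1 was dropped, and its 12 h wild-type values of 800, 494 and 510 TPM were 44.1 times the 7 mM mean. *gh61-6* (NCU03328), of the family of copper enzymes that cut crystalline polysaccharides, had 7.88, 6.22 and 8.29 TPM at 7 mM, 36.2, 34.0 and 36.1 TPM in Experiment 1 and 11.6, 13.9 and 10.8 TPM in Δ*nuc-1*. *gh31-1* (NCU09281), a glycosyl hydrolase gene, had 2.98, 3.52 and 3.69 TPM at 7 mM, 12.8, 19.4 and 17.7 TPM in Experiment 1 and 5.16, 5.19 and 4.60 TPM in Δ*nuc-1*. For *gh61-6* and *gh31-1* every Δ*nuc-1* library lay above every library at 7 mM.

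Metabolic enzymes were scattered over pathways. The glycerol kinase gene NCU06005, whose product makes glycerol 3-phosphate, had 25.5, 25.7 and 27 TPM at 7 mM, 81.4, 56.3 and 48.2 TPM in starved wild type of Experiment 2 and 58.5, 52.9 and 95.2 TPM in Δ*nuc-1*. The aspartyl-tRNA synthetase gene NCU07082, whose product charges tRNA for translation, had 8.85, 8.52 and 8.67 TPM at 7 mM, 40.8, 23.0 and 10.2 TPM in starved wild type of Experiment 2 and 46.8, 17.4 and 16 TPM in Δ*nuc-1*. Both had Δ*nuc-1* means above the wild-type mean, with ratios of 1.11 and 1.08, but the libraries of the 2 strains overlapped. The glutamate decarboxylase gene NCU00678, whose product makes the amino acid GABA, had Δ*nuc-1* values of 6.95, 3.56 and 3.97 TPM around its 7 mM values of 4.30, 4.54 and 4.34 TPM. The DNA repair gene *mus-18* (NCU08850), encoding an endonuclease that nicks DNA at ultraviolet damage, had 5.22, 6.23 and 6.36 TPM at 7 mM, 58.4, 34.7 and 40.6 TPM in starved wild type of Experiment 1 and 15.3, 7.28 and 10.7 TPM in Δ*nuc-1*.

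Several of the 6 largest Experiment 1 ratios belonged to genes without a useful description. NCU01064 went from 4.91, 5.65 and 8.74 TPM at 7 mM to 177, 101 and 121 TPM in starved wild type of Experiment 1, a ratio of 20.7, and had 14.4, 12.4 and 18.2 TPM in Δ*nuc-1*. NCU09057 had a ratio of 15.4 in Experiment 1, from 18.5, 20.7 and 22 TPM to 307, 309 and 323 TPM, but its Δ*nuc-1* values of 42.5, 11.5 and 17.6 TPM included 2 below every 7 mM library. NCU06009, with a ratio of 11.7, had 12.0, 13.4 and 17.8 TPM in Δ*nuc-1* against 7.45, 8.84 and 9.17 TPM at 7 mM. NCU01064 and NCU06009 were therefore higher in each Δ*nuc-1* library than in any at 7 mM, and NCU09057 was not. NCU06265, a hypothetical protein gene and among the most stable members, had 41.8, 37.7 and 49.8 TPM at 7 mM, 303, 255 and 245 TPM in Experiment 1, 143, 144 and 124 TPM in starved wild type of Experiment 2 and 187, 135 and 103 TPM in Δ*nuc-1*, a ratio of 1.03 between the strains. NCU00322, another hypothetical protein gene, was the 1 gene whose starved mean was no higher in Experiment 1 than in Experiment 2, at 160 against 162 TPM, with 137 TPM in Δ*nuc-1*.

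Only 6 genes had a Δ*nuc-1* mean at or above the starved wild-type mean, and 2 of them stood apart. *mfa-1* (NCU16992), the pheromone precursor gene of *mat a* strains, had 1.76, 1.77 and 1.70 TPM at 7 mM, 13, 15.5 and 12.5 TPM in starved wild type of Experiment 1, 12.9, 8.68 and 12.4 TPM in starved wild type of Experiment 2 and 143, 128 and 121 TPM in Δ*nuc-1*. All of these wild-type libraries came from *mat A* cells and the Δ*nuc-1* libraries from *mat a* cells, and the *mat a* wild type of Experiment 3 had 68.6, 203 and 87.5 TPM after 12 h. The 11.5-fold difference between the strains of Experiment 2 therefore cannot be told apart from their mating types, whereas the rise of *mfa-1* between 7 mM and 0 mM was measured within *mat A*. NCU08635, without a description, had 5.48, 3.01 and 9.68 TPM in starved wild type of Experiment 2 and 8.03, 36.7 and 30.8 TPM in Δ*nuc-1*, so the groups overlapped despite a ratio of 4.16. Of the remaining 4, NCU04667 had 23.9, 12.0 and 11.9 TPM in wild type and 27, 18.4 and 14.8 TPM in Δ*nuc-1*, against 4.67, 6.23 and 5.06 TPM at 7 mM.

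**Figure D3:**
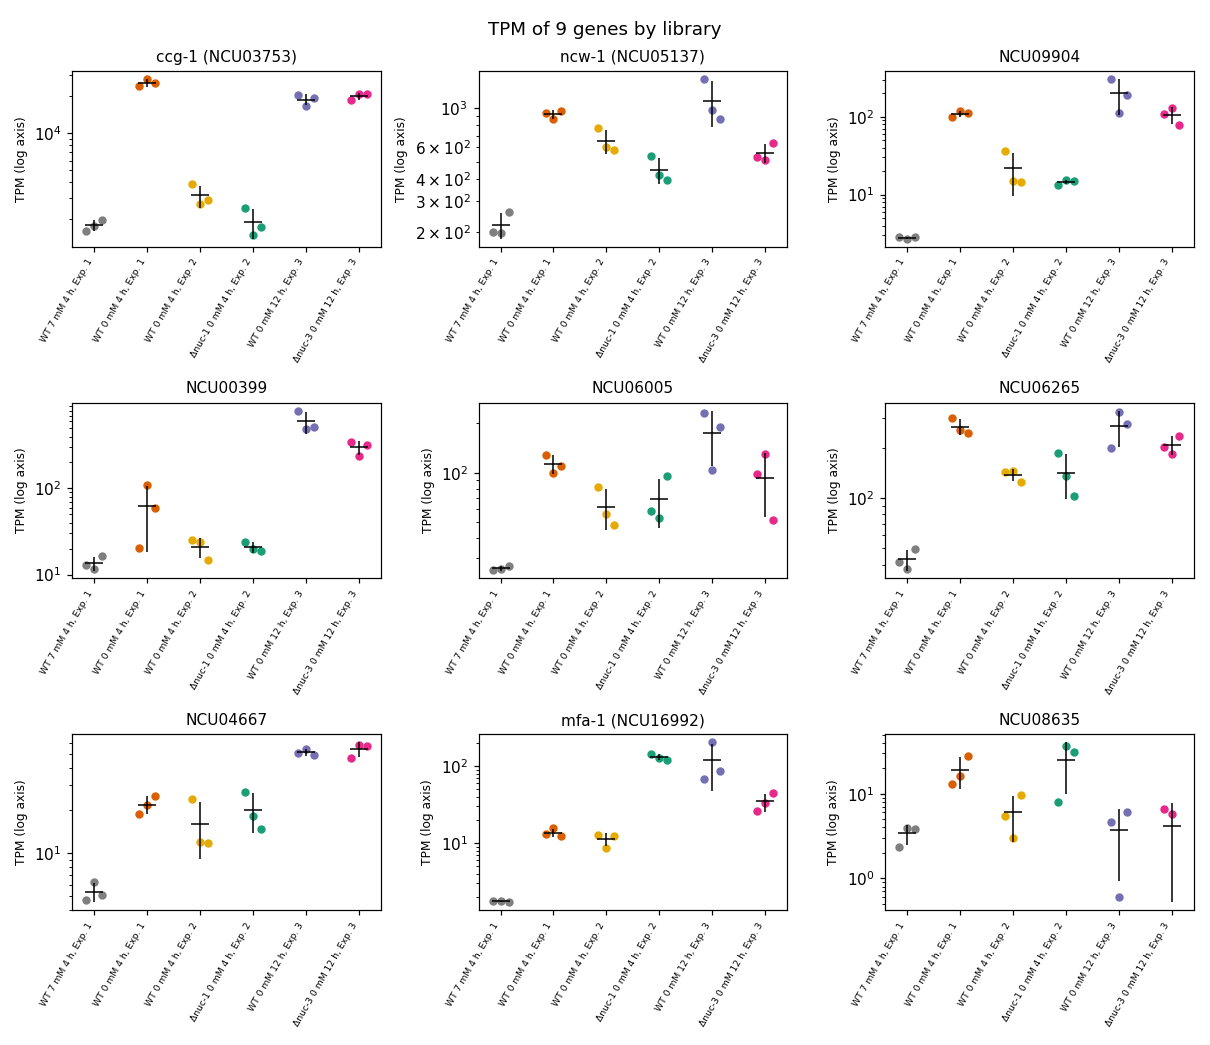
TPM (log axis) of 9 genes in each of the 18 libraries, with one point per library and the mean ± SD of the 3 libraries of a group in black. *ncw-1*, NCU06265, NCU06005 and NCU04667 keep a raised level in Δ*nuc-1*, *ccg-1* is near its 7 mM level there, and *mfa-1* is at 131 TPM in Δ*nuc-1* against 11.3 TPM in wild type.

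The genes were spread over chromosomes I to VII. All 40 were placed on the NC12 assembly by their gene numbers, 13 of them (32.5%) on chromosome I, which holds 25.5% of the 6993 genes, and 8 on chromosome V, which holds 16.8%. The closest pair was NCU04669 (chromosome V, 1253677 to 1257315) and NCU04667 (chromosome V, 1259817 to 1262554), with 2501 bp and 1 gene, NCU11309, between them. NCU04669 went from 17, 18.3 and 19.2 TPM at 7 mM to 106, 117 and 107 TPM in Experiment 1 and had 34.6, 15.4 and 17.6 TPM in Δ*nuc-1*, so the pair differed there, NCU04667 staying above 7 mM in every Δ*nuc-1* library. NCU06009 (chromosome VI, 3102539 to 3104168) and NCU06005 (chromosome VI, 3113510 to 3116822) also lay near each other. The share of such nearby pairs over all genes is not given here. The median gene length was 2274 bp, against 2373.5 bp for the 6993 genes.

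Most of the genes were high after 12 h of starvation too. All 3 wild-type libraries of Experiment 3 lay above all 3 libraries at 7 mM for 36 of 40 genes (90.0%), where 48.4% of the 6993 genes did so, and below all 3 for NCU05376. The median ratio of the 12 h mean to the 7 mM mean was 5.07, against 1.17 over the 6993 genes. It was 11.1 for the 73 genes with a low Δ*nuc-1* ratio and 4.36 for the 153 genes with a ratio in between. The 12 h mean exceeded the starved 4 h mean of Experiment 2 for 34 genes (58.1% of the 6993 genes did so) and that of Experiment 1 for 17 (41.0% of the 6993 genes did so), the latter a share close to that of all genes. These levels are set side by side across experiments that differ in strain, sequencer and read length, and for Experiment 1 also in centre. The 7 mM libraries also took part in choosing the genes, so no test was made. NCU05376 fell outside the pattern, with 54.5, 45.3 and 57.8 TPM after 4 h in Experiment 1, 13.6, 13.9 and 11 TPM at 7 mM and 4.64, 5.67 and 6.19 TPM after 12 h. NCU11293 at 2.75, 4.61 and 4.68 TPM, NCU08635 at 4.62, 0.604 and 6.04 TPM and NCU06555 at 8.46, 1.90 and 6.66 TPM overlapped their 7 mM ranges after 12 h.

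Markers of asexual development differed widely between the groups. The summed TPM of *con-6*, *con-8*, *con-10*, *con-13*, *eas* and *fl* were 58.4 to 76.6 at 7 mM, 5171 to 6768 in starved wild type of Experiment 1, 111 to 169 in starved wild type of Experiment 2, 34.4 to 37.1 in Δ*nuc-1*, 4456 to 7632 in 12 h wild type and 14883 to 24182 in Δ*nuc-3*. Most of each starved Experiment 1 and 12 h sum was *eas*, the hydrophobin gene of the conidial coat. Among the wild-type groups the sum, like the 40 genes, was highest in starved Experiment 1 and after 12 h. The single markers were less uniform: *fl*, a regulator of conidiation, had means of 17.8, 81.6, 39.7 and 47.7 TPM at 7 mM, in starved Experiment 1, in starved Experiment 2 and after 12 h, and *con-13* had 0.634, 3.73, 0.721 and 0.0882 TPM. Set against the starved wild type of Experiment 2, the sum and the 40 genes were both lower in Δ*nuc-1*. The mean sum was 35.8 there against 130, and the median ratio of the 40 genes was 0.722. Set against 7 mM, the sum in Δ*nuc-1* was below the mean of 67.4, while the median of the 40 genes was 1.54 times the 7 mM mean. The conditions put a floor under the level of the 40 genes there and asked for a raised starved wild-type mean in Experiment 2. Nothing is read from either contrast. In Δ*nuc-3* the mean sum was 18781 against 6004 in its wild type. Most of this difference was *eas*, with means of 17637 against 5197 TPM. The other markers were less uniform, with means of 1012 against 694 TPM for *con-8* and 21.3 against 10.2 TPM for *con-6*. They were 50.9 against 47.7 TPM for *fl*, 59.8 against 54.3 TPM for *con-10* and 0 against 0.0882 TPM for *con-13*. The study lists *con-6* among the genes that NUC-3 represses directly. The median log2 fold change of the 40 genes between these strains was -0.11. The part of conidiation in the levels of the 40 genes was not tested further. In such bulk samples, more cells of a kind and more RNA per cell cannot be told apart.

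**Figure D4:**
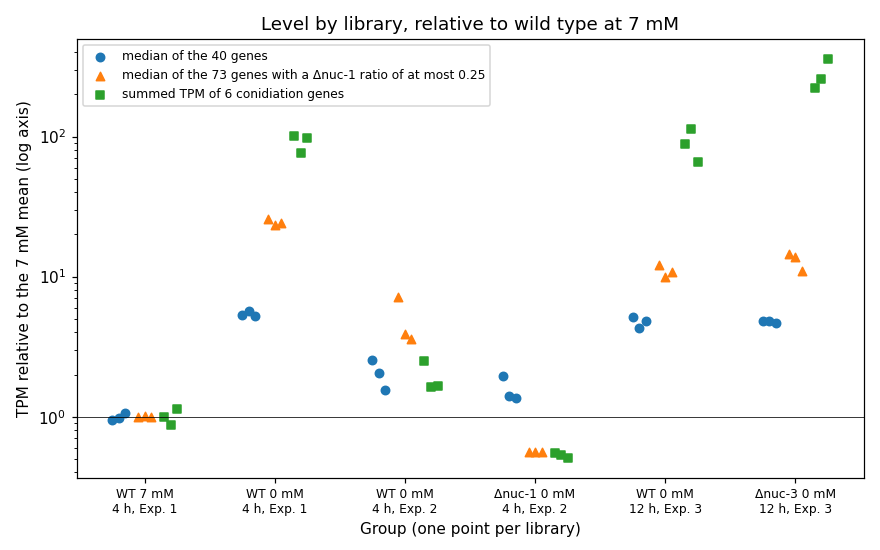
For each library, the median over the 40 genes (circles) and over the 73 genes with a Δ*nuc-1* ratio of at most 0.25 (triangles) of TPM relative to the 7 mM mean, and the summed TPM of 6 conidiation genes on the same relative scale (squares), on a log axis. The circles run from 1.35 to 1.96 in Δ*nuc-1* and from 1.54 to 2.55 in its wild type, the triangles fall to between 0.561 and 0.563 in Δ*nuc-1*, and the squares are far above 1 in starved Experiment 1 and at 12 h.

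The comparison of Δ*nuc-3* with wild type after 12 h asked whether these genes change without NUC-3, and it was the 1 test that shared no library with their choice. It was made with limma on log2(rescaled TPM + 1) for 8005 genes. None of the 40 genes, all of which were tested, was called at an adjusted p under 0.05 with a 2-fold difference and at least 10 TPM in either strain, while 0.637% of all tested genes were called higher and 0.0874% lower. Without the fold and level conditions the count was also 0 of 40, against 1.72% of all tested genes, and at an unadjusted p under 0.05 it was 16 of 40, against 1736 of 8005. The median log2 fold change over the 40 genes was -0.11, with 16 genes above 0, against -0.01 over all tested genes. Medians were 0.28 for the 73 genes with a low Δ*nuc-1* ratio and 0.50 for 20 starvation-induced genes of the phosphate pathway named in the study, which were chosen by the study on these samples. Of these 20, 0 were called higher and 2 lower, and the 2 were *nuc-3* itself, the deleted gene, and *sut-28*. By mean deposited TPM, 5 of the 20 were at least 2 times higher in Δ*nuc-3*. Among them was *pho-2*, with 4589, 2309 and 3416 TPM in wild type and 9471, 10795 and 6544 TPM in Δ*nuc-3*. The study, with another method (DESeq2), reported *pho-2* among genes at least 2-fold higher in Δ*nuc-3*. The calls made here therefore missed a rise that the study reported.

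The genes with the lowest Δ*nuc-3* ratios were picked after their values were seen. *mfa-1* (NCU16992) had 68.6, 203 and 87.5 TPM in wild type and 26.3, 33.2 and 44.7 TPM in Δ*nuc-3*, a log2 difference of -1.61 ± 0.45 (SE, limma adjusted p = 0.121). All 3 Δ*nuc-3* libraries were below all 3 of wild type, both strains being *mat a*, and in 1 fit over all 18 libraries the limma adjusted p was 0.00587. That fit took its spread from all groups, including the libraries of Experiments 1 and 2 that chose the genes. *ncw-1* (NCU05137) had 1460, 971 and 872 TPM in wild type and 533, 509 and 637 TPM in Δ*nuc-3*, a log2 difference of -0.93 ± 0.21 (SE, limma adjusted p = 0.0809). For the PhiA gene NCU00399 the values were 800, 494 and 510 TPM against 344, 235 and 323 TPM, a log2 difference of -0.97 ± 0.22 (SE, limma adjusted p = 0.0886). These 3 genes were among 11 of 40 with all 3 Δ*nuc-3* libraries below all 3 of wild type, where 15.5% of the 6993 genes were so, and 4 of 40 had all 3 above, where 11.7% were so. None passed the adjusted threshold in the comparison of the 6 libraries.

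Other low ratios had a wider spread or a smaller difference. The glucan 1,3-beta-glucosidase gene NCU09904 had 307, 113 and 190 TPM in wild type and 108, 130 and 78.4 TPM in Δ*nuc-3*. The log2 difference was -0.84 ± 0.32 (SE, limma adjusted p = 0.194) between groups that overlapped. The glycerol kinase gene NCU06005 had a log2 difference of -0.91 ± 0.36 (SE, limma adjusted p = 0.207) between groups that overlapped. NCU11293, at under 5 TPM in every 12 h library, had 2.75, 4.61 and 4.68 TPM in wild type and 0.512, 1.14 and 2.15 TPM in Δ*nuc-3*, a log2 difference of -1.17 ± 0.34 (SE, limma adjusted p = 0.127) between groups that did not overlap. NCU04415 had 377, 373 and 379 TPM in wild type and 267, 249 and 292 TPM in Δ*nuc-3*, a small difference of -0.47 ± 0.12 on the log2 scale (SE, limma adjusted p = 0.107) between groups that did not overlap. The largest ratio in the other direction was that of NCU01064, with 12.8, 22.1 and 11.2 TPM in wild type and 19.2, 20.9 and 37.8 TPM in Δ*nuc-3*, a log2 difference of 0.73 ± 0.36 (SE, limma adjusted p = 0.302). *ccg-1* differed little, at 20477, 16699 and 19269 TPM against 18653, 20796 and 20928 TPM. A p that misses the threshold with 3 libraries per strain does not show that the strains were alike.

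**Figure D5:**
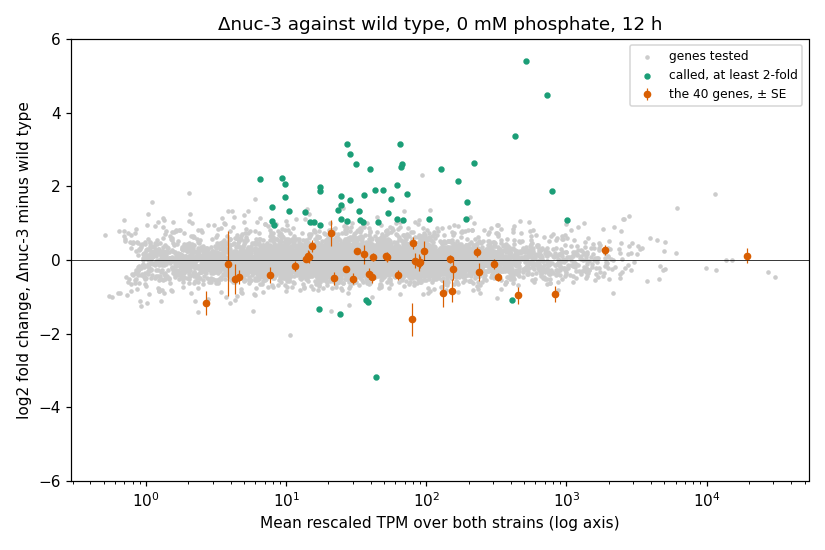
Log2 fold change of Δ*nuc-3* over wild type after 12 h at 0 mM phosphate against mean rescaled TPM (log axis) for the genes tested (grey), the genes called (green) and the 40 genes (orange, ± SE). None of the 40 genes was called, and their values lie between -1.61 for *mfa-1* and 0.73 for NCU01064.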

How the data were processed

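RNA from 18 libraries was compared as TPM. For the deposited table, the authors quantified TPM in Salmon (version 1.4.0) against the transcripts of the OR74A genome and, as stated, applied no further scaling; every library sums to 1000000 TPM over the table. TPM hold no counts, so the depth is unknown and precision is given by the spread between 3 libraries. Low TPM are the least precise, and a shift in a few abundant transcripts moves the TPM of all others. Groups came from the deposited labels. The transcripts of a gene were summed.

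The 40 genes and all gene lists were chosen with earlier results of these data known. Δ*nuc-3* was compared with wild type with limma (version 3.58.1; lmFit, eBayes with trend) in R (version 4.3.3), using TPM rescaled by median ratios with 1 added before taking log2, over genes reaching an average of 1 TPM in either strain, with Benjamini-Hochberg adjustment. Genes were called at a ratio of 2 or more in either direction, 10 TPM or more in either strain and an adjusted p under 0.05. The procedure was tested on simulated data.

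Genes were named by rule: the 6 highest in starved wild type of Experiment 1, the 6 largest Experiment 1 ratios, the 6 largest Δ*nuc-1* ratios, the 2 nearest genes on each side of the 4-fold and 0.6 thresholds, the genes called in Δ*nuc-3*, the 3 highest per annotation class, genes with a symbol and neighbouring pairs. NCU00399, NCU06555, NCU11293 and genes listed by a count were named after their values were seen. Gene positions and symbols came from RefSeq (NC12), which matched 40 of 40 genes. Descriptions came from the text columns of the study's data sets, held in part, and covered 21 of 40 genes, 5 of them as hypothetical proteins. Python (version 3.11.15), pandas (version 2.3.3) and NumPy (version 2.4.6) were used for the tables, and figures were drawn with matplotlib (version 3.10.9).

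Alternatives were other thresholds, rescaled TPM, the transcript listed first for each gene, other scaling, an added 0.1, no filter on low values, a robust spread, 1 fit over 18 libraries, a replicate block and leaving out single libraries. Promoter sequences were not analysed here.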

Additional observations from a re-analysis of the deposited data

How the results depend on the processing

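The number of genes meeting the conditions depended on the thresholds. It was 25 with rescaled TPM, 67 with a Δ*nuc-1* ratio above 0.5, 14 with a ratio above 0.8, 75 with an Experiment 1 ratio of at least 3 and 16 with one of at least 6. It was 41 with the transcript listed first, 37 of them among the 40, and 27 to 48 with 1 library left out. The number of genes above all 7 mM libraries after 12 h was 35 with rescaled TPM and 36 to 38 with 1 library left out. Of the 40 genes, 0 were called higher or lower in Δ*nuc-3* in each setting but 1: a fit over all 18 libraries called *mfa-1* lower, 1 gene in all (log2 difference -1.62, limma adjusted p = 0.00587). That fit took its spread in part from the libraries that chose the genes. It gave *ncw-1* a limma adjusted p of 0.00344 with a ratio under the 2-fold condition. Over the other alternatives and libraries left out, the limma adjusted p of *mfa-1* ran from 0.0708 to 0.315. Over all genes, 51 were called higher and 7 lower. The lower count was 4 with TPM as deposited, 11 in the fit over 18 libraries and 1 to 11 with 1 library left out. The higher count was 4 to 39 with 1 library left out, with 4 without wild-type replicate 3, 11 without Δ*nuc-3* replicate 2, 20 without replicate 3 and 31 without replicate 1. The median log2 fold change of the 40 genes was -0.15 with 0.1 added and -0.17 to -0.034 with 1 library left out. No source describes the numbers as pairs, and same-numbered libraries of Experiment 3 did not deviate together, with correlations of -0.09, -0.53 and -0.06. With the replicate number as a block, 2 genes were called higher and 1 lower over all genes, and 0 of the 40. The cause of these changes was not tested. The planned search of promoters for motifs was not run. TPM hold no depth, so the counting error of the genes of a few TPM is unknown.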
